A study of Mus musculus with 16 samples.

Results

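The genes described here encode the protein components of the cytosolic ribosome, with their close relatives by name, as measured in mouse intestinal mucosa and tumours. Members were the array probes whose annotated symbol is Rpl or Rps followed by a number, or Rplp0, Rplp1, Rplp2 or Rpsa, leaving out the Rps6k kinases and pseudogenes. Of 25697 probes on the array, 84 probes of 66 genes fitted this rule, and 74 probes of 60 genes were detected (detection p under 0.05) on at least 2 of the 14 readable arrays. Of these 74, 41 probes (32 genes) stand for proteins of the large subunit, 26 probes (22 genes) for the small subunit, 6 probes (5 genes) for paralogs, and 1 for Rps19bp1, a protein that binds Rps19 and matches by name only. The 10 probes left out were detected on 1 array (Rpl37 and Rpl4, 1 probe each) or on none (Rpl17, Rpl23, Rpl39l, Rpl6, Rplp2, Rps23, Rps23rg1 and Rpsa, 1 probe each). The genes Rpl17, Rpl39l, Rpl6, Rplp2, Rps23 and Rps23rg1 therefore have no value here.

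Each cytosolic ribosome is built from a small subunit, which reads the mRNA, and a large subunit, which joins the amino acids, and most ribosomal proteins are needed in equal copy number in every ribosome. Their mRNAs are among the most abundant of a cell, and many begin with a C followed by a run of pyrimidines, the 5′ terminal oligopyrimidine (TOP) tract, through which the mTOR pathway controls their translation. Transcription of ribosomal protein genes and of the nucleolar factors that assemble subunits rises with growth, and MYC, a target of Wnt signalling in the intestine, is a known activator of both.

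The RNA of 16 samples was hybridised to Illumina bead arrays for the mouse, with 1 array for each sample. All mice were of a mixed B6/129/Balbc/CD1 background and all, wt included, were put on doxycycline at 6 to 7 weeks of age. The genotypes were wt, Apcmin/+ (a truncating allele of Apc, the brake on Wnt signalling), iLIN28B (LIN28B under inducible control; the protein binds RNA and blocks maturation of the let-7 microRNAs) and iLIN28B with Apcmin/+, written LIN28B/Apcmin below. The labels give neither the promoter that drives LIN28B nor the cells in which it is on, and LIN28B itself was not analysed here. Colon groups were normal wt mucosa (n = 2), Apcmin adenomas (n = 2) and LIN28B/Apcmin adenomas (n = 4). Small intestinal groups were normal wt mucosa (n = 2), LIN28B tumours (n = 2), Apcmin adenomas (n = 2) and LIN28B/Apcmin adenomas (n = 2). All mice were 3 months old, except those with LIN28B small intestinal tumours, which were 8 months old, with adenoma or adenocarcinoma. In that group 1 title reads Jej where the other small intestinal titles read D, so that genotype, age, histology and part of the intestine cannot be told apart there.

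Replicate 4 of the LIN28B/Apcmin colon tumours and replicate 1 of the wt small intestine stood apart, with 11.97% and 5.28% of probes detected against 48.29% to 56.47% on the other 14 arrays, and went into no comparison. This leaves 3 LIN28B/Apcmin colon arrays and 1 wt small intestinal array. LIN28B/Apcmin colon replicate 3 had also lost 1985 signals under 25, among them 1 member probe, and these were set to missing. All 3 readable LIN28B/Apcmin colon titles open with the number 2135 and both LIN28B small intestinal titles with 1737. Nothing states what the number stands for, so p-values measure the spread between these samples, which may come from 1 animal. The tissue labels were checked against markers: all 8 measured enterocyte markers were detected on every readable small intestinal array, and their summed level was 14.02 to 16.07 there against 8.06 to 9.36 in the colon (log2). The 8 colonocyte markers were all detected in wt colon, summed to 14.96 to 15.06, and were lower in tumours, at 11.16 to 11.22 in Apcmin and 8.47 to 9.0 in LIN28B/Apcmin colon. In the small intestine they summed to 13.05 in wt, 11.02 to 11.54 in LIN28B, 12.56 to 13.26 in Apcmin and 11.86 to 11.95 in LIN28B/Apcmin. The colonocyte list thus sets wt colon apart, but does not mark the colon tumours as colon. In bulk tissue, fewer cells of a type and less RNA per cell cannot be told apart.

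The annotated start of the mRNA is shown for 8 members with called probes. The lines let a reader see annotated starts with and without the pyrimidine tract for which the family is known. The first 5 are the called genes in which the tract was found, and the last 3 are called genes in which it was not. The lines therefore do not show how frequent it is. Each line holds 40 bases of the RefSeq annotation of GRCm38.p6, 20 before and 20 from the annotated start, 5′ to 3′ on the gene's strand. Capitals mark a C followed by at least 4 C or T that begins within 5 bases of that start. The start is the first listed for each gene and was not measured here. A tract further from it is not marked, so a line without capitals does not show an mRNA without the tract.
Rps6, chr4:86857348-86857387, minus strand: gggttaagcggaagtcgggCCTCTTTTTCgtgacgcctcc
Rpl13a, chr7:45128726-45128765, minus strand: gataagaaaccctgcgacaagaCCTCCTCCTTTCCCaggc
Rps15a, chr7:118116128-118116167, minus strand: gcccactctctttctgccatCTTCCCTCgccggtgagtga
Rps9, chr7:3704021-3704060, plus strand: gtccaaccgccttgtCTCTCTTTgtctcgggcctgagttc
Rpl34, chr3:130730379-130730418, minus strand: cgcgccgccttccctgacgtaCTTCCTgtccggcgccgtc
Rps3, chr7:99483690-99483729, minus strand: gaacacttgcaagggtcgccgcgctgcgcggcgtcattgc
Rps19, chr7:24884572-24884611, plus strand: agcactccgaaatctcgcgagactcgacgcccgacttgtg
Rplp0, chr5:115559447-115559486, plus strand: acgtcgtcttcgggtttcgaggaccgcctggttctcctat
The tract begins 1 base before the annotated start in Rps6, at the start in Rps15a, and a few bases to either side in the other 3 that have it.

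Of the 66 member genes, 57 have a promoter in the RefSeq table. Such a tract was found at the annotated start in 26 of these 57 (45.6%) and in 17.2% of 27025 promoters of all genes. Its length among members ranged from 5 to 20 bases. The search used the first listed start of each gene and a narrow window around it. The shares are therefore of annotated starts, and do not give the part of the mRNAs that carry a tract. Among the 49 subunit genes the tract was found in 23 (46.9%), and among the 15 genes with a called probe and a listed promoter in 5 (33.3%). In the 300 bases from 250 before to 50 after the start, searched on both strands, CCGGAAG (the core bound by ETS family factors and GABP) was found in 21 of 57 members (36.8%) against 9.12% of all promoters, and in 1 of the 15 called genes (6.67%). AAGATGG, part of the YY1 motif, was found in 9 (15.8%) against 6.48%, and in 4 of the 15 called genes (26.7%). CACGTG, the E-box that MYC and other factors bind, was found in 5 (8.77%) against 7.24%, and in 2 of the 15 called genes (13.3%). TATAAA was found in 5 (8.77%) against 14.2%, and in 1 of the 15 (6.67%). CCGGAAG and AAGATGG can share the letters AAG at an overlap. These are matches of letters, not binding sites.

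Ribosomal protein probes were among the brightest on the arrays. By their mean over the readable arrays 44 of the 74 lay at or above 12 on the log2 scale, and 42 lay in the top 2% of tested probes. Between 18 and 36 of the 100 brightest probes of an array were members. The highest means belonged to Rplp1, a stalk protein (14.68), Rpl41 (14.59) and Rps20 (14.37). The lowest belonged to Rpl14 (4.59), 1 of 2 probes of Rplp0 (4.70) and Rpl37 (4.70). Brightness depends on the probe as well as on its transcript, so it ranks probes and not genes.

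The members' median log2 level was lowest in wt small intestine (12.03, 1 array) and highest, as a group mean, in the tumours of the colon (12.93 ± 0.02 in Apcmin, SD, n = 2, and 12.93 ± 0.10 in LIN28B/Apcmin, SD, n = 3). It was 12.53 and 12.56 on the wt colon arrays, 12.95 and 12.92 on the Apcmin colon arrays, and 12.86, 13.05 and 12.89 on the LIN28B/Apcmin colon arrays. In the small intestine it was 12.03 on the wt array, 12.61 and 12.77 in LIN28B, 12.15 and 12.39 in Apcmin, and 12.65 and 13.01 in LIN28B/Apcmin tumours. On these quantile-normalized medians both wt colon arrays lay below all 5 colon tumour arrays. Apcmin small intestinal tumours lay between the wt array and the groups with LIN28B, without overlap. The share of the summed background-corrected signal that fell on members, which uses no scaling between arrays, gave a like picture in the colon: 6.24% and 6.57% in wt, 7.38% and 7.41% in Apcmin, and 7.15%, 7.57% and 7.18% in LIN28B/Apcmin. In the small intestine this share was 5.20% in wt, 6.37% and 7.48% in LIN28B, 5.59% and 6.63% in Apcmin, and 7.36% and 9.82% in LIN28B/Apcmin. The small intestinal LIN28B and Apcmin groups overlap on that measure, and the highest value of all belongs to LIN28B/Apcmin replicate 2, whose title adds Muc to Tum. Of the 74 probes, 56 had their lowest group mean in wt small intestine, while the highest lay in LIN28B/Apcmin colon for 33, in Apcmin colon for 16, in LIN28B/Apcmin small intestine for 16, in LIN28B small intestine for 7 and in wt colon for 2. The wt small intestinal value is 1 array, which varies more than a mean of 2 or 3, and the shares over all probes were not counted.

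**Figure D1:**
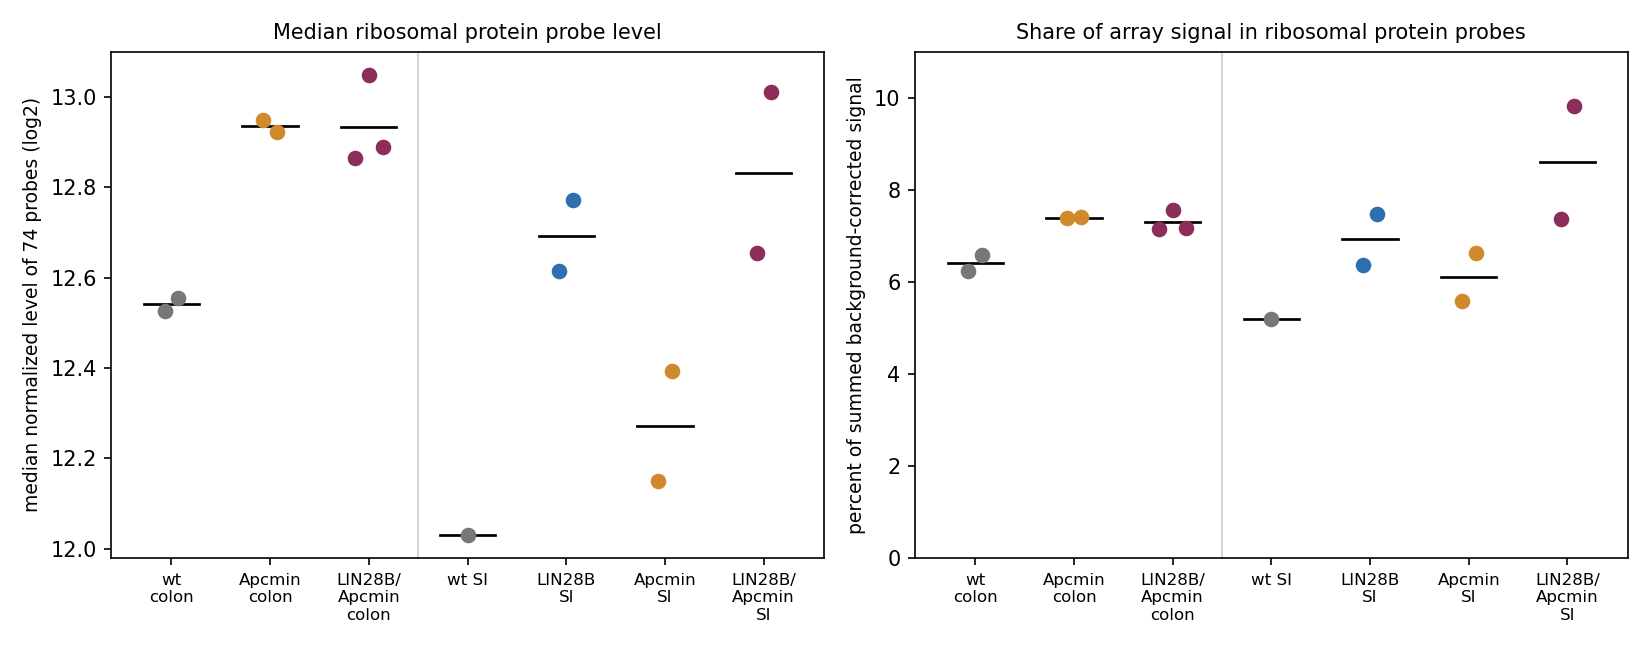
Level of the ribosomal protein probes on each of the 14 readable arrays, by group, as the median over the 74 probes (log2, after quantile normalization) and as the percent of the summed background-corrected signal. Points are arrays. The wt small intestinal array has the lowest median (12.03) and LIN28B/Apcmin colon replicate 2 the highest (13.05).

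Differences below are log2 differences of group means ± SE from a single limma fit over all 15495 probes that were detected and name 1 gene, and a probe is called where its Benjamini-Hochberg adjusted p is under 0.05. Each of the 26 calls among members was lost without at least 1 of the arrays. Where a count of called members is given under another setting or without an array, the share over all probes is not given beside it.

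In Apcmin adenomas against wt mucosa of the colon, Rpl13a rose, and most other members lay higher without passing the test. Rpl13a is a large-subunit protein that also leaves the ribosome to repress inflammatory mRNAs. Its levels were 9.53 and 9.91 in wt and 10.78 and 10.64 in Apcmin tumours. All tumour values lie above all wt values, and the difference was 0.99 ± 0.29 (log2, SE), or 1.99-fold, with an adjusted p of 0.0458 in the limma fit. It was the only call: 1 of 74 probes was higher and 0 lower, against 6% of all 15495 probes called higher and 6.94% lower, so calls were rarer among members than among all probes. Next in order were Rps6, the S6 kinase substrate of the small subunit (0.61 ± 0.18, adjusted p = 0.0506), and Rps13 (0.66 ± 0.21, adjusted p = 0.0592), which did not pass. On the negative side the smallest p-values were those of Rpl37 (-0.31), Rpl21 (-0.22) and Rpsa (-0.15), none passed, and the Rpl37 and Rpsa probes were not detected in at least 1 of the groups. A brighter Rpl37 probe had group means of 14.02 in wt and 14.15 in Apcmin colon. Of the 74 differences 68 were positive, with a median of 0.25 against 0.02 over all probes, and 51 probes had both tumour arrays above both wt arrays, against 34.8% of all probes. With arrays scaled only to a common median the members' median was 0.09 and 52 were positive. The Rpl13a call was lost under that scaling, and also without either wt colon array, either Apcmin colon array or any of the 3 LIN28B/Apcmin colon arrays, which share the estimate of spread. The count was 3 and 2 without Apcmin small intestinal replicates 1 and 2.

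LIN28B/Apcmin adenomas against wt mucosa of the colon gave most of the calls: 18 probes of 15 genes rose and 0 fell. Over all probes 12.6% were called higher and 12.9% lower, so the higher share was larger among members. Of the 74, 47 probes had every tumour array above both wt arrays, against 29.7% of all probes. Small-subunit genes supplied 10 of the 18 (of 26 probes), large-subunit genes 6 (of 41) and the paralog Rpl7l1 both its probes. The calls on the small subunit were Rps3, Rps6, Rps9, Rps12, Rps13, Rps15, Rps15a and Rps19, with 2 probes each for Rps3 and Rps19. On the large subunit they were Rpl13a, Rpl24, Rpl30, Rpl34, Rpl35a and the stalk protein Rplp0. Differences of the 18 ranged from 0.52 (Rpl24, 1.43-fold) to 1.31 (a dim probe of Rps19, 2.47-fold). The family as a whole depended on the scaling. Its median was 0.36 with 60 positive after quantile normalization (0.04 over all probes), and 0.03 with 39 positive after median scaling (0.05 over all probes). Relative to all probes, the members' median thus lay above under the first and slightly below under the second.

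**Figure D2:**
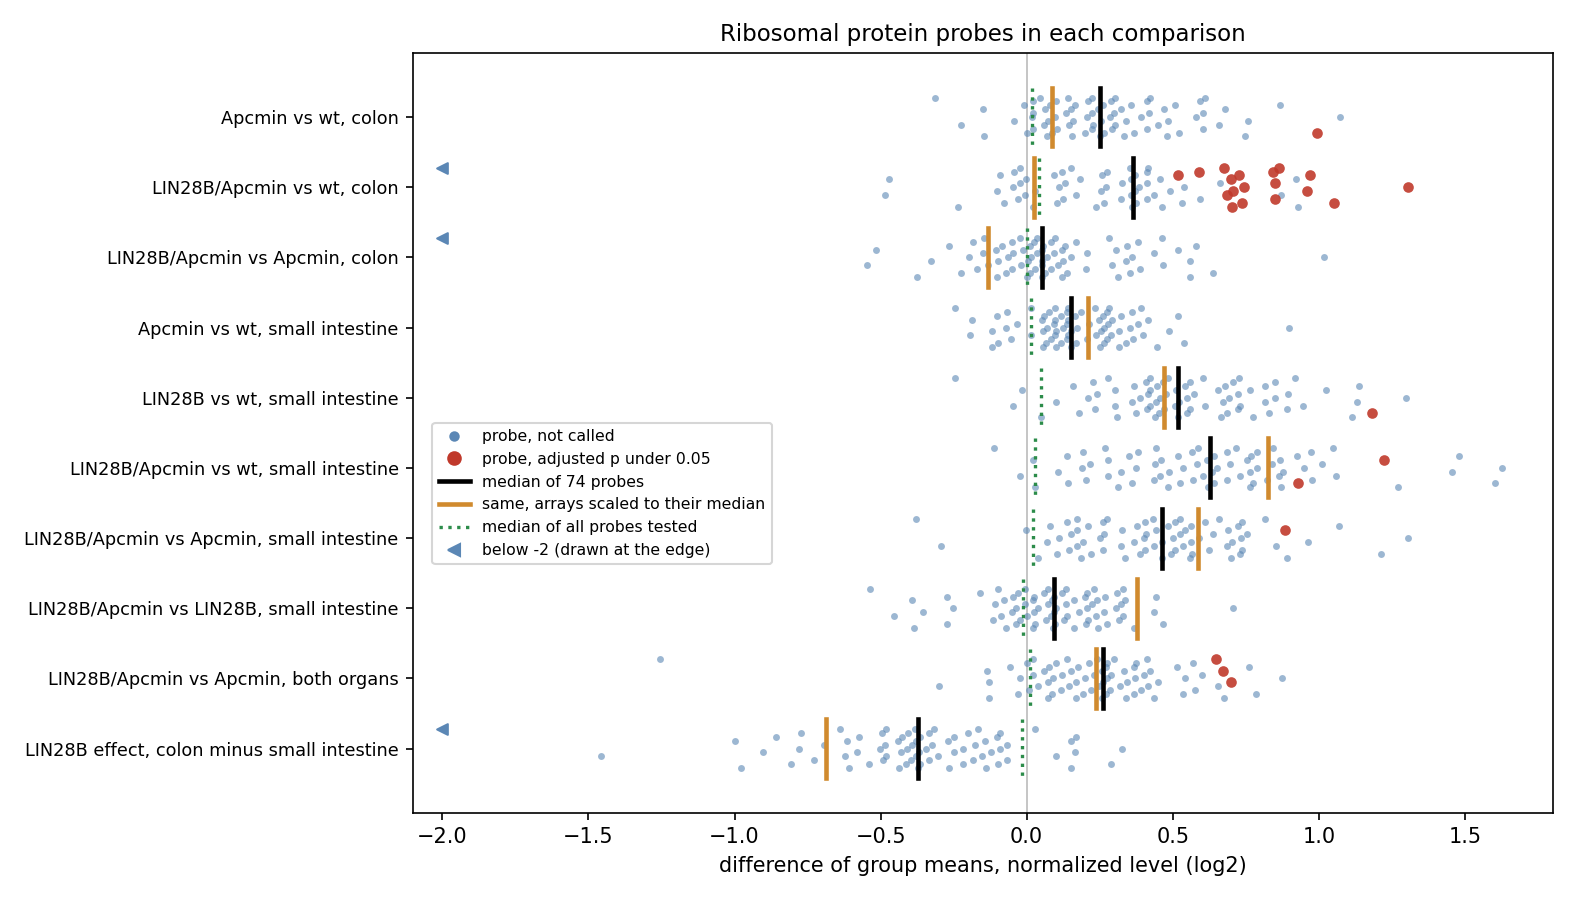
Log2 differences of the 74 member probes in each comparison. Dots are probes, red dots those with an adjusted p under 0.05, the black mark is the members' median, the orange mark their median after median scaling and the green dotted mark the median of all probes. Triangles at the left edge stand for Rpl35, which lies beyond it. Red dots are most frequent in LIN28B/Apcmin against wt colon (18 of 74), where the black and orange marks stand at 0.36 and 0.03.

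Rps19, the small-subunit protein first linked to Diamond-Blackfan anaemia, had the largest rise, on a dim probe detected on 12 of the 14 readable arrays. That probe read 4.89 and 4.98 in wt colon and 5.88, 6.84 and 6.02 in LIN28B/Apcmin colon tumours. The bright Rps19 probe read 13.58 and 13.54 against 14.54, 14.003 and 14.24. The groups do not overlap on either probe, and the differences were 1.31 ± 0.37 (adjusted p = 0.0247) and 0.70 ± 0.20 (adjusted p = 0.0254).

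Rps3, a small-subunit protein at the mRNA entry channel, read 11.55 and 11.38 in wt and 12.37, 12.23 and 12.34 in LIN28B/Apcmin colon tumours (probe ILMN_2637639), a rise of 0.85 ± 0.20 (1.8-fold, adjusted p = 0.0103). Its second probe rose by 0.69 (adjusted p = 0.0422). Both probes lay higher on each tumour array than on either wt array. Rps9, a small-subunit protein, read 12.04 and 11.91 against 12.52, 12.98 and 12.95 and rose by 0.84 ± 0.20 (adjusted p = 0.0113). Its second probe read 12.88 and 12.86 against 13.09, 13.52 and 13.36, higher on every tumour array but not called. Rps6 read 12.94 and 12.71 against 13.49, 13.47 and 13.63 and rose by 0.71 ± 0.17 (1.63-fold, adjusted p = 0.0107).

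Rpl34, a large-subunit protein, read 12.57 and 12.64 in wt and 13.37, 13.61 and 13.37 in LIN28B/Apcmin colon tumours, and rose by 0.85 ± 0.21 (adjusted p = 0.0135). Rpl13a read 10.65, 10.89 and 10.76 in these tumours, 1.05 ± 0.26 above wt (adjusted p = 0.0145). Rplp0, the base of the ribosomal stalk, read 8.17 and 8.11 against 8.74, 9.44 and 9.11, a rise of 0.96 ± 0.31 (adjusted p = 0.0427). None of these groups overlap. The lower side held no call. Rpl21 (-0.48 ± 0.20, adjusted p = 0.109) and Rpl22 (-0.47 ± 0.23, adjusted p = 0.168) came nearest. Rpl35 stood at -2.86 ± 2.19 (adjusted p = 0.384), which rests on LIN28B/Apcmin colon replicate 3: its probe read 14.09 and 13.88 on the other two arrays and 4.21 there, from an undetected signal of 28. With signals under 30 set to missing, the Rpl35 difference was 0.40 (adjusted p = 0.181).

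The number of calls in this comparison rested on few arrays. It fell from 18 to 1 and 2 without wt colon replicates 1 and 2, and to 8 without LIN28B/Apcmin colon replicate 2. It was 4 after median scaling, 5 on the values of the deposited series matrix, and 2 with arrays of the same title number averaged, of which 1 was higher (Rps9, 0.84, adjusted p = 0.0468) and 1 lower (Rpl35, which rests on the single low array). Shares over all probes are not given for these settings. Whether the higher share stayed larger among members there cannot be read from the counts.

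**Figure D3:**
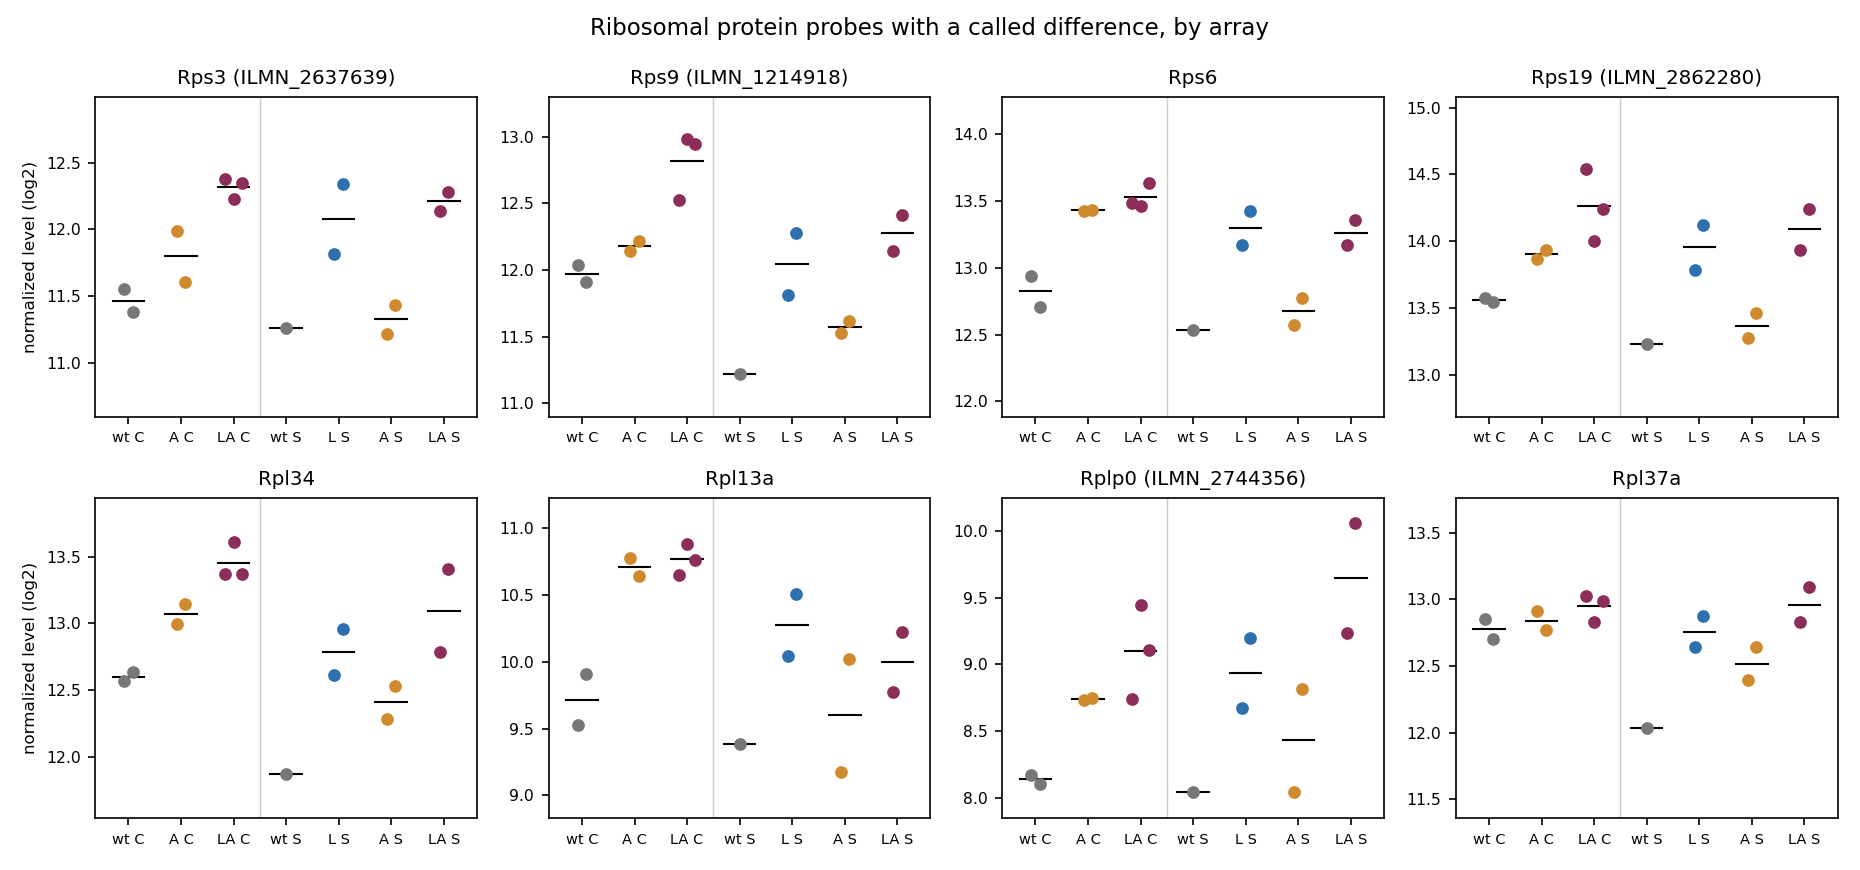
Log2 levels of 8 called member probes on each readable array. Points are arrays, bars are group means, and A, L and LA stand for Apcmin, LIN28B and LIN28B/Apcmin, C and S for colon and small intestine. Rps3 reads 12.23 to 12.37 in LIN28B/Apcmin colon tumours and 12.14 to 12.28 in LIN28B/Apcmin small intestinal tumours, above every Apcmin tumour array.

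LIN28B/Apcmin against Apcmin adenomas of the colon asks what LIN28B adds in tumours that already carry Apcmin. The test called 0 of 74 members, against 1.13% of all probes. In the same limma test 8 of 74 members had an unadjusted p under 0.05, against 2091 of all 15495 probes. The highest were Rps9 (12.15 and 12.22 in Apcmin against 12.52, 12.98 and 12.95), at 0.64 ± 0.20 (adjusted p = 0.179), the Rpl7l1 probe ILMN_1249606 at 0.56 ± 0.19 (adjusted p = 0.217) and Rpl22l1 at 1.02 ± 0.39 (adjusted p = 0.271). The lowest by p were Rpl21 at -0.55 ± 0.20 (adjusted p = 0.261), Rpl22 at -0.52 ± 0.23 (adjusted p = 0.367) and Rps14 at -0.27 ± 0.14 (adjusted p = 0.463). The groups do not overlap for any of these 6 probes. Another Rpl21 probe had group means of 6.27 in Apcmin and 6.26 in LIN28B/Apcmin colon. The members' median was 0.05 with 49 positive, and -0.13 with 23 positive after median scaling, so its sign depends on the scaling. Of the 74, 19 probes had all LIN28B/Apcmin arrays above both Apcmin arrays, against 16.9% of all probes.

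The wt small intestine is 1 array, so in the 3 comparisons with it the SE and p hold no spread of that group, which is assumed to vary like the others.

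In the small intestine, Apcmin adenomas did not differ from the single wt array by any call among the 74 members, against 0.071% of all probes. Rpl37a (0.49 ± 0.23), Rpl34 (0.54 ± 0.28) and Rpl22l1 (0.90 ± 0.52) had the smallest p-values among positive differences, and Rpl7a (-0.25), Rpl3l (-0.19) and Rpl27a (-0.19) among negative ones, where the Rpl3l and Rpl27a probes were not detected in at least 1 group. The median was 0.15 with 63 positive, and 47 probes lay higher on both Apcmin arrays than on the wt array, against 30.3% of all probes.

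LIN28B tumours against wt of the small intestine gave 1 call of 74 higher and 0 lower, near the 0.904% of all probes called higher (1.69% were called lower). The call was Rpl7l1, a paralog of Rpl7 and relative of yeast Rlp7, which acts in assembly of the large subunit. Its probe ILMN_1249606 read 9.24 on the wt array and 10.39 and 10.47 in LIN28B tumours, a rise of 1.18 ± 0.23 (2.27-fold, adjusted p = 0.0305) over that single array. Rps16 (0.85 ± 0.25, adjusted p = 0.0903) and Rps6 (0.77 ± 0.22, adjusted p = 0.0929) did not pass. The negative side began with Rpl22 (-0.25), Rpsa (-0.05) and Rpl21 (-0.02). Of the 74 probes 71 were positive, with a median of 0.52 (0.05 over all probes), and 67 lay higher on both LIN28B arrays than on the wt array, against 44.2% of all probes. After median scaling the median was 0.47 with 69 positive. The call was lost without either LIN28B small intestinal array or either wt colon array.

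LIN28B/Apcmin adenomas against wt of the small intestine had the largest median of the 10 comparisons, 0.63 with 72 positive after quantile normalization, and 0.83 with 73 positive after median scaling, which itself moved the median of all probes from 0.03 to 0.19. Called were 2 of 74 higher and 0 lower, near the 2.07% of all probes called higher (2.7% were called lower). Both tumour arrays lay above the wt array for 66 probes, against 40.2% of all probes. Rpl34 read 11.87 on the wt array and 12.78 and 13.41 in the tumours, a rise of 1.22 ± 0.28 (2.34-fold, adjusted p = 0.0377). Rpl37a, a zinc-finger protein of the large subunit, read 12.03 against 12.83 and 13.09, a rise of 0.93 ± 0.23 (1.90-fold, adjusted p = 0.0456). The tumour arrays lie above the wt array for both, and the spread behind both p-values comes from the other groups. Rps9 stood at 1.06 ± 0.27 (adjusted p = 0.0508) and did not pass. Only Rpl4 (-0.11) and Rpl3l (-0.02) were negative. The count was 0 without LIN28B/Apcmin small intestinal replicate 2, either wt colon array or either Apcmin colon array, 1 without LIN28B/Apcmin colon replicate 3, 6 without either Apcmin small intestinal array and 10 without LIN28B/Apcmin small intestinal replicate 1. The Rpl34 call was lost in 5 and the Rpl37a call in 10 of 13 such runs.

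LIN28B/Apcmin against Apcmin adenomas of the small intestine gave 1 call of 74 higher and 0 lower, near the 1.88% of all probes called higher (2.29% were called lower). Rps3 (ILMN_2637639) read 11.22 and 11.44 in Apcmin and 12.14 and 12.28 in LIN28B/Apcmin tumours. The groups do not overlap, and the rise was 0.88 ± 0.22 (1.84-fold, adjusted p = 0.0482). The second Rps3 probe read 12.56 on both Apcmin arrays and 13.12 and 13.31 in LIN28B/Apcmin, higher but not called. Rpl7l1 (0.74 ± 0.19, adjusted p = 0.0569) and Rpl29 (1.07 ± 0.30, adjusted p = 0.0659) did not pass, and Rpl23 (-0.29), Rpl4 (-0.38) and Rpl27a (-0.00) had the smallest p-values below 0. Other Rpl23 probes had higher group means in LIN28B/Apcmin than in Apcmin small intestine, 13.71 against 13.53 and 9.55 against 9.36. The median was 0.46 with 71 positive (0.59 with 72 positive after median scaling), and 59 probes had both LIN28B/Apcmin arrays above both Apcmin arrays, against 26.4% of all probes. The count was 7 without Apcmin replicate 2 or LIN28B/Apcmin replicate 1 of the small intestine. It was 0 without Apcmin replicate 1 or LIN28B/Apcmin replicate 2 of the small intestine, any wt or Apcmin colon array, or LIN28B/Apcmin colon replicate 1 or 3, and 0 after median scaling. The Rps3 call itself was lost in 10 of 14 such runs, also without LIN28B/Apcmin small intestinal replicate 1 or colon replicate 2.

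LIN28B/Apcmin against LIN28B tumours of the small intestine, which also differ in age, gave 0 calls of 74, against 0.729% of all probes. In the same limma test 0 members had an unadjusted p under 0.05, against 2348 of all 15495 probes. Rplp0 (0.71 ± 0.34), Rps3a1 (0.47 ± 0.23) and Rpl22 (0.44 ± 0.26) led the positive side and Rpl7l1 (-0.39 ± 0.19), Rpl23 (-0.45 ± 0.24) and Rpl4 (-0.54 ± 0.31) the negative, with adjusted p of 0.359 to 0.465. The median was 0.09, and 0.38 after median scaling, where that of all probes moved from -0.01 to 0.16. It was -0.05 without LIN28B/Apcmin replicate 2. For 9 probes both LIN28B/Apcmin arrays lay above both LIN28B arrays, against 20.7% of all probes.

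Averaged over colon and small intestine, 3 of 74 members rose and 0 fell in LIN28B/Apcmin against Apcmin tumours, against 2.36% of all probes called higher and 2.65% lower. They were Rps3 (0.70 ± 0.15, 1.63-fold, adjusted p = 0.0259), Rps9 (0.67 ± 0.15, 1.59-fold, adjusted p = 0.0304) and Rpl7l1 (0.65 ± 0.13, 1.57-fold, adjusted p = 0.0275). The Rps3 probe read 11.22 to 11.99 on the 4 Apcmin arrays and 12.14 to 12.37 on the 5 LIN28B/Apcmin arrays. The Rps9 probe read 11.53 to 12.22 against 12.14 to 12.98. Within each organ the groups do not overlap for Rps9, while LIN28B/Apcmin small intestinal replicate 1 lay below both Apcmin colon arrays. The Rpl7l1 probe read 9.27 to 9.64 against 9.98 to 10.06 on 4 arrays, with LIN28B/Apcmin colon replicate 3 missing. Keeping that lost signal turned the Rpl7l1 difference to -0.31. Rpl4 (-0.30), Rpl23 (-0.13) and Rpl35 (-1.26) had the smallest p-values below 0. The median was 0.26 with 66 positive. The count was 0 without Apcmin small intestinal replicate 1, Apcmin colon replicate 2 or LIN28B/Apcmin small intestinal replicate 2, 1 without Apcmin colon replicate 1, 6 without Apcmin small intestinal replicate 2 and 10 without LIN28B/Apcmin small intestinal replicate 1. The Rps3, Rps9 and Rpl7l1 calls were lost in 3, 8 and 5 of 14 such runs. The count was 1 after median scaling, and with arrays of the same title number averaged 0 higher and 1 lower (Rpl35).

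The added difference of LIN28B was tested between the organs as an interaction. Members had a median of -0.37 (colon minus small intestine) with 8 of 74 positive, and -0.69 with 7 positive after median scaling, against -0.02 over all probes under both. The test called 0 members, against 0.342% of all probes. In the same limma test 10 of 74 members had an unadjusted p under 0.05, against 2437 of all 15495 probes. The smallest p-values were those of Rpl21 (-0.98 ± 0.30, adjusted p = 0.195), Rpl38 (-1.46 ± 0.49, adjusted p = 0.210) and Rps13 (-0.81 ± 0.28, adjusted p = 0.217), and on the positive side those of Rpl23 (0.33), Rpl3l (0.17) and Rpl22l1 (0.29). A brighter Rpl38 probe had group means of 14.32 in Apcmin and 14.27 in LIN28B/Apcmin colon, and of 14.13 and 14.46 in the small intestine. Comparisons above share control samples (wt colon, Apcmin colon, the single wt small intestinal array and Apcmin small intestine), so their values stand side by side and are not independent.

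By subunit, the members' medians were 0.21 and 0.33 in Apcmin against wt colon, 0.35 and 0.50 in LIN28B/Apcmin against wt colon, 0.48 and 0.59 in LIN28B against wt small intestine, and 0.41 and 0.53 in LIN28B/Apcmin against Apcmin small intestine, large subunit first. The small-subunit median was the larger in each of these 4, and the difference between subunits was not tested.

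Across the 7 groups, the members differed in how far they ranged. The narrowest ranges of group means were those of Rpsa (0.21), a small-subunit protein also known as the laminin receptor, Rpl41 (0.22) and Rplp1 (0.28). The Rpsa probe was dim (4.67 in Apcmin colon) and was detected in some groups only. Rplp1 read 14.75, the top value that quantile normalization gives, on most arrays, so its range is bounded from above. The widest were Rpl35 (3.17, from the single array above), Rpl38 (1.79) and Rpl22l1 (1.63). Rpl38, known in mouse for its part in translating Hox mRNAs, read 8.53 and 8.85 in wt colon, 9.78 and 9.75 in Apcmin and 9.70, 10.01 and 9.13 in LIN28B/Apcmin colon on the wide probe. In the small intestine that probe read 9.02 in wt, 9.81 and 10.51 in LIN28B, 8.74 and 9.61 in Apcmin, and 10.21 and 10.74 in LIN28B/Apcmin. Wt colon lay lowest in the colon, and LIN28B/Apcmin above Apcmin in the small intestine, without a call.

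Of 13 genes with more than 1 kept probe (27 probes), probes differed most in range for Rpl38 (1.79 and 0.57), Rplp0 (1.6 and 0.70) and Rps9 (1.6 and 0.94). The second Rpl38 probe read 13.89 on the wt small intestinal array and 14.09 to 14.66 on the others. Rpl5, which with Rpl11 and the 5S RNA binds Mdm2, read 12.96 and 13.03 in wt colon, 13.28 and 13.31 in Apcmin, 13.22, 13.43 and 13.40 in LIN28B/Apcmin, 12.63 in wt small intestine, 12.79 and 12.92 in LIN28B, 12.65 and 12.73 in Apcmin and 12.99 and 13.14 in LIN28B/Apcmin small intestine. All 5 colon tumour arrays lay above wt colon, and no Rpl5 difference was called.

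Among the paralogs, Rpl7l1 rose in LIN28B/Apcmin against wt colon on both probes, by 0.86 ± 0.19 (adjusted p = 0.00885) and 0.97 ± 0.29 (adjusted p = 0.0299). Its probe ILMN_1249606 read 9.03 and 9.28 in wt, 9.27 and 9.64 in Apcmin and 9.98 and 10.04 in LIN28B/Apcmin colon, and 9.24 in wt, 9.30 and 9.29 in Apcmin, 10.39 and 10.47 in LIN28B and 10.01 and 10.06 in LIN28B/Apcmin small intestine. Every array with LIN28B that kept this signal lay above every array without it, and with the lost signal of LIN28B/Apcmin colon replicate 3 kept, the colon difference from wt was -1.06. The second probe (ILMN_2661407) read 7.21 on that array, 6.19 and 6.80 on the other LIN28B/Apcmin colon arrays and 5.73 to 6.32 on the other colon arrays.

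Rpl22, a large-subunit protein of which Rpl22l1 is a paralog held down by Rpl22 in mouse, read 10.08 and 9.97 in wt, 10.05 and 10.09 in Apcmin and 9.59, 9.89 and 9.18 in LIN28B/Apcmin colon. Rpl22l1 read 6.20 and 5.89 in wt, 5.99 and 5.81 in Apcmin and 7.07, 6.87 and 6.81 in LIN28B/Apcmin colon. In the colon the LIN28B/Apcmin arrays thus lay lowest for Rpl22 and highest for Rpl22l1, without overlap, and neither was called. In the small intestine Rpl22 read 9.75 in wt, 9.31 and 9.71 in LIN28B, 9.83 and 9.53 in Apcmin and 9.74 and 10.15 in LIN28B/Apcmin. Rpl22l1 read 5.29, then 5.90 and 7.28, then 6.11 and 6.27, then 6.33 and 7.51 in the same order of groups. For Rpl22 the Apcmin arrays overlap there with both other tumour groups, while both LIN28B/Apcmin arrays lay above both LIN28B arrays. LIN28B/Apcmin replicate 2 held the highest small intestinal reading of both genes, 10.15 for Rpl22 and 7.51 for Rpl22l1, so the opposite order of the colon was not seen there.

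Rps27 read 13.34 and 13.35 in wt colon, 13.45 and 13.52 in Apcmin and 13.36, 13.48 and 13.12 in LIN28B/Apcmin colon, and 12.84 to 13.50 in the small intestine. Its paralog Rps27l, a target of p53, read 12.80 and 12.77, then 13.13 and 12.97, then 13.26, 13.28 and 12.63 in the same colon groups. In the small intestine Rps27l read 12.82 in wt, 13.33 and 13.64 in LIN28B, 13.01 and 12.96 in Apcmin and 12.94 and 13.25 in LIN28B/Apcmin. The LIN28B small intestinal arrays were the highest for Rps27l and no difference of either gene was called. Rpl36a (11.40 to 12.94) and Rpl36al (12.85 to 13.43) held no call either, nor did Rpl3l, a muscle paralog of Rpl3 whose probe averaged 4.71.

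**Figure D4:**
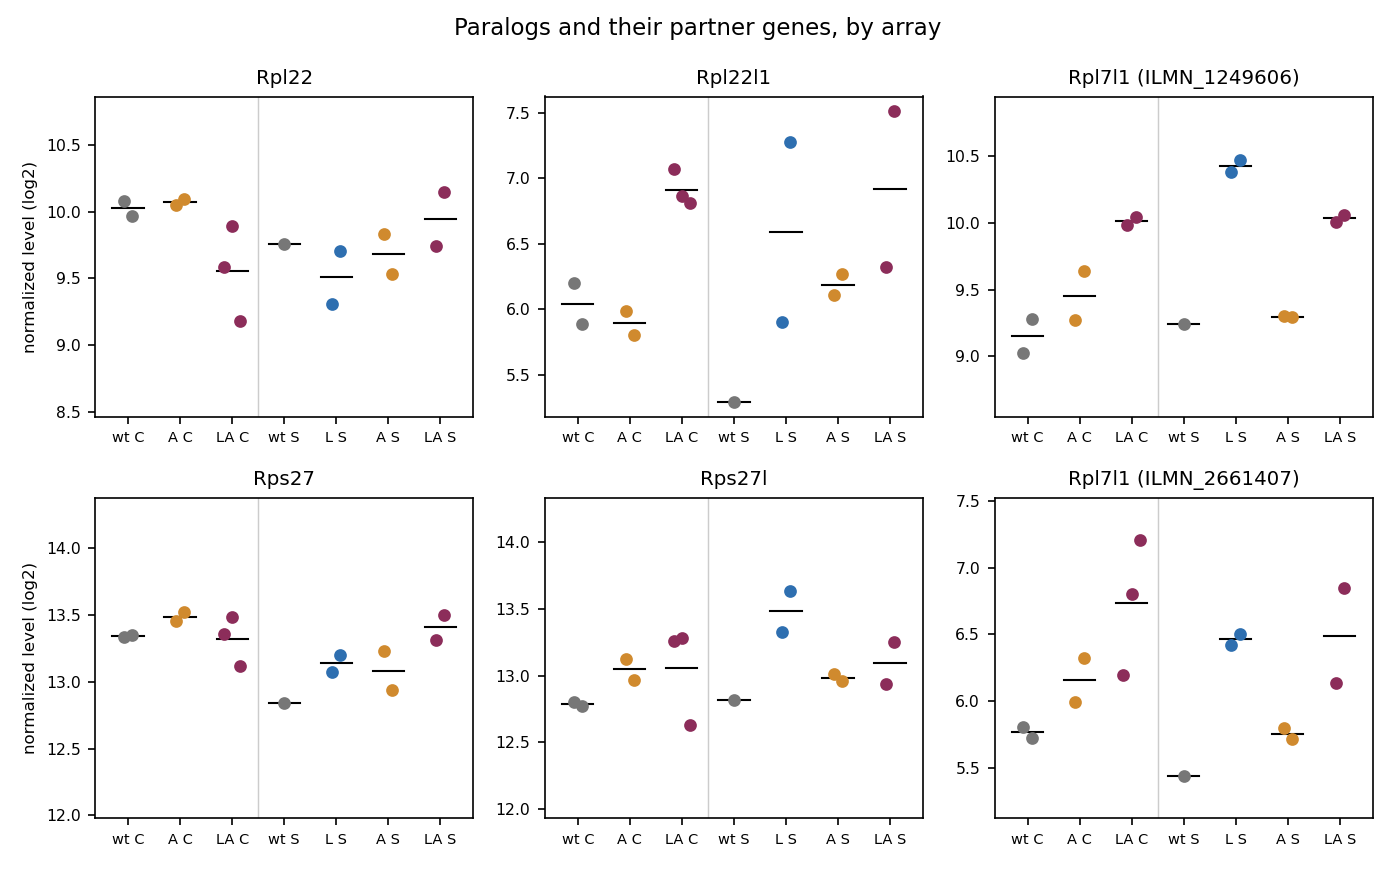
Log2 levels of paralogous ribosomal protein genes on each readable array. Points are arrays and bars group means. In the colon, LIN28B/Apcmin arrays read 9.18 to 9.89 for Rpl22 and 6.81 to 7.07 for Rpl22l1, below and above all other colon arrays. In the small intestine, LIN28B/Apcmin replicate 2 reads highest for both, at 10.15 and 7.51.

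Genes that build or use ribosomes were counted beside the members. Of 36 measured ribosome biogenesis genes, 12 rose in Apcmin and 22 in LIN28B/Apcmin against wt colon, 2 in LIN28B and 4 in LIN28B/Apcmin against wt small intestine, and 2 in LIN28B/Apcmin against Apcmin small intestine, with 0 lower in any of these. Their medians were 0.71, 0.89, 1.02, 0.95 and 0.72, and stayed above 0 after median scaling (0.65, 0.75, 1.07, 1.03 and 0.77). In the colon, where scaling took the ribosomal protein median to 0.09 and 0.03, biogenesis genes held 7 and 11 calls under that scaling. Among them, Nop56, a core protein of box C/D snoRNPs, rose by 1.39 ± 0.30 (adjusted p = 0.0128) and Mybbp1a, a nucleolar protein, by 1.24 ± 0.26 (adjusted p = 0.0124) in Apcmin against wt colon. Nip7 and Ltv1, factors of large- and small-subunit assembly, rose by 1.62 ± 0.24 (adjusted p = 0.000637) and 1.54 ± 0.28 (adjusted p = 0.00262) in LIN28B/Apcmin against wt colon. In LIN28B/Apcmin against Apcmin small intestine, Mybbp1a rose by 1.33 ± 0.26 (adjusted p = 0.0256) and Nip7 by 1.08 ± 0.26 (adjusted p = 0.0425). Summed biogenesis levels were 13.87 to 14.01 in wt colon and 14.65 to 14.96 in the colon tumours.

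Translation factors with TOP mRNAs (20 measured) held 3 higher calls in Apcmin and 4 in LIN28B/Apcmin against wt colon, and 0 in the other comparisons, and 1 and 0 in the first 2 after median scaling. Hnrnpa1, an RNA-binding protein with a TOP mRNA, rose by 1.07 ± 0.28 (adjusted p = 0.0310) in Apcmin against wt colon, and Pabpc1, the poly(A)-binding protein, by 0.97 ± 0.25 (adjusted p = 0.0159) in LIN28B/Apcmin against wt colon. Eef1g, a subunit of elongation factor 1, rose in both, by 0.59 ± 0.16 and 0.51 ± 0.14. Mitochondrial ribosomal proteins (71 measured) held 3 higher and 2 lower calls in LIN28B/Apcmin against wt colon, with a median of 0.09, which was -0.12 after median scaling. In LIN28B against wt small intestine their median was 0.37 with 63 of 71 positive and 1 call, higher (0.35 and 63 positive after median scaling). They held 1 higher and 1 lower call in LIN28B/Apcmin against wt small intestine, 2 lower calls against Apcmin and 2 lower against LIN28B small intestine, and 2 higher and 1 lower in both organs, with medians of 0.22, 0.25, -0.13 and 0.14. Fau, which encodes the small-subunit protein eS30 under another name, had group means of 12.96 to 13.53 and no call. Rack1 was not analysed here.

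Myc, the growth regulator, was detected on all readable arrays and rose by 1.17 ± 0.25 in LIN28B/Apcmin against wt colon (adjusted p = 0.00639). Its group means were 4.91 in wt, 5.72 in Apcmin and 6.08 in LIN28B/Apcmin colon, and 4.97, 5.68, 5.40 and 5.51 in wt, LIN28B, Apcmin and LIN28B/Apcmin small intestine. Apcmin against wt colon stood at 0.81 ± 0.28 (adjusted p = 0.0790). Of 7 measured regulators of ribosomal protein genes, Myc was the only call in LIN28B/Apcmin against wt colon.

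**Figure D5:**
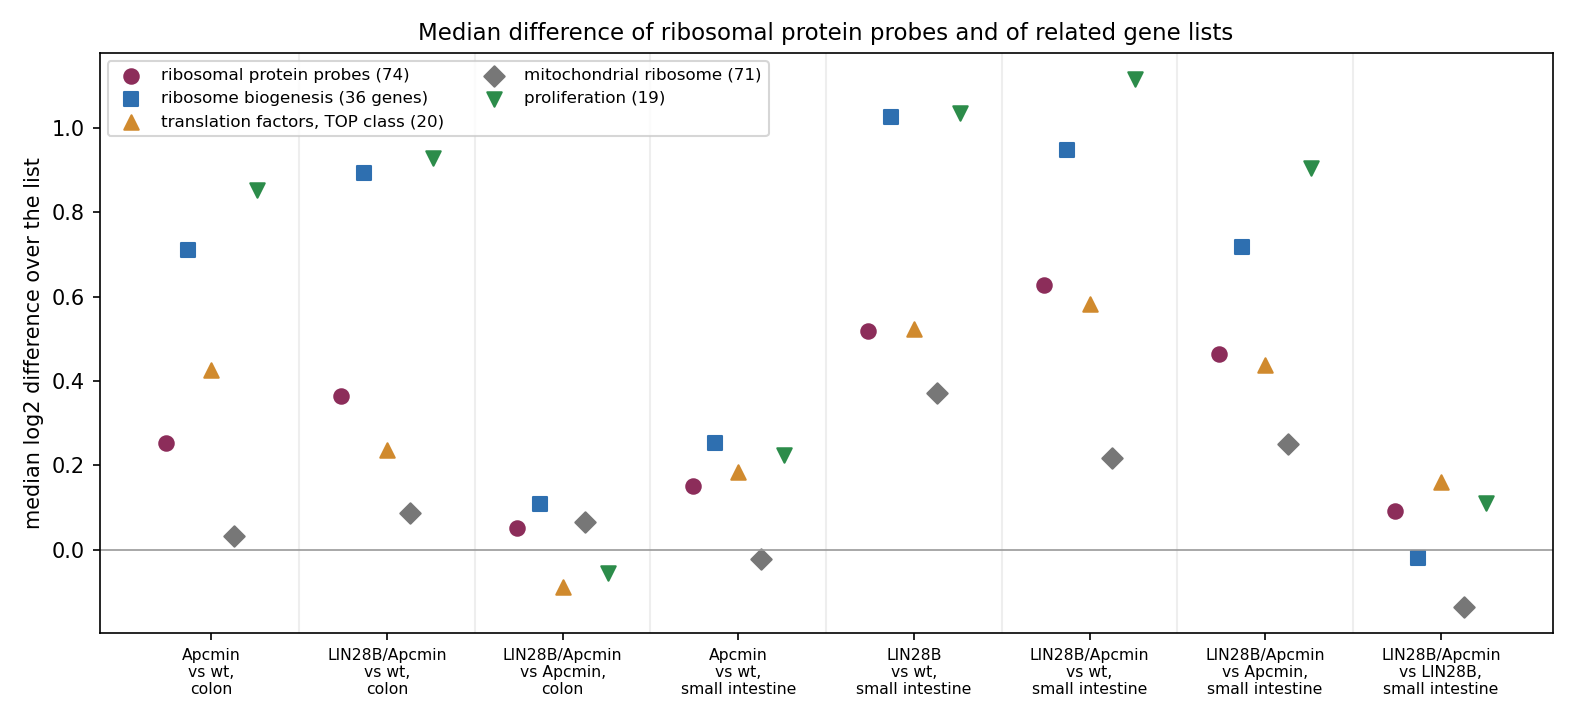
Median log2 difference of the ribosomal protein probes and of related gene lists in 8 comparisons after quantile normalization. Each mark is the median over the measured genes of a list. Ribosome biogenesis and proliferation lists reach 0.89 and 0.93 in LIN28B/Apcmin against wt colon, where ribosomal proteins stand at 0.36.

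Markers of other cell types moved with the groups. Of 12 measured smooth muscle genes, 10 fell in Apcmin and 12 in LIN28B/Apcmin against wt colon, 8 in LIN28B/Apcmin against wt and 8 against Apcmin small intestine, with medians of -2.79, -3.47, -2.31 and -1.66. In LIN28B/Apcmin against Apcmin in both organs, the comparison in which Rps3, Rps9 and Rpl7l1 rose, 9 of the 12 fell (median -1.21), as did 4 of 8 colonocyte genes (median -1.14). In LIN28B against wt small intestine, where Rpl7l1 rose, 1 smooth muscle gene, 4 of 8 colonocyte genes (median -1.69) and 1 of 8 enterocyte genes (median -1.89) fell. In LIN28B/Apcmin against wt small intestine, where Rpl34 and Rpl37a rose, 3 of 8 colonocyte genes fell (median -1.01) and no enterocyte gene was called (median -0.45). The summed smooth muscle level was 15.84 to 15.91 in wt colon, 13.69 to 13.90 in Apcmin and 12.92 to 13.29 in LIN28B/Apcmin colon, and 14.79 in wt, 13.31 to 13.71 in LIN28B, 14.03 to 14.36 in Apcmin and 11.63 to 13.15 in LIN28B/Apcmin small intestine, with Synpo2 undetected in every group but wt colon. Within each organ the wt group thus had the lowest quantile-normalized ribosomal protein median and the highest muscle marker level. The part of muscle RNA, or of the other cell types given here, in the results was not tested. Epithelial markers summed to 14.72 to 15.49 in all groups. Of 19 measured proliferation genes 7 rose in Apcmin and 9 in LIN28B/Apcmin against wt colon and 2 in LIN28B/Apcmin against wt small intestine (7, 5 and 2 after median scaling), with summed levels of 12.84 to 12.94 in wt and 13.55 to 14.09 in tumours of the colon. Plasma and B cell genes (9 measured) summed to 13.02 in wt small intestine, 9.98 to 11.87 in LIN28B, 10.42 to 12.36 in Apcmin and 9.34 to 10.28 in LIN28B/Apcmin tumours, with 2 lower calls in LIN28B/Apcmin against wt. Of 10 measured myeloid genes 4 rose in Apcmin and 6 in LIN28B/Apcmin against wt colon and 3 in LIN28B against wt small intestine, with summed levels of 11.49 to 11.67 in wt, 13.33 to 13.92 in Apcmin and 14.01 to 14.15 in LIN28B/Apcmin colon. All 3 measured red cell genes rose in LIN28B/Apcmin and 2 in Apcmin against wt colon, where they summed to 8.87 to 10.48 in wt and 12.64 to 14.41 in tumours.

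In the same comparisons of Apcmin and of LIN28B/Apcmin with wt colon, 7 and 8 of the 8 colonocyte genes fell, 2 and 3 of 10 epithelial and 1 and 2 of 8 enterocyte genes fell, and 1 and 2 of 8 endothelial genes rose. Of 9 fibroblast genes 2 rose in the first, and 1 rose and 1 fell in the second. Of 5 T cell genes 1 fell in the first. Of 9 plasma and B cell genes 0 were called in the first and 2 fell in the second (median -0.94). Their summed levels were 12.96 to 13.20 in wt, 11.75 to 11.97 in Apcmin and 11.04 to 11.52 in LIN28B/Apcmin colon. Of the 12 measured genes of paralog pairs, Rpl7l1 was the only one called, in the 3 comparisons given above. The part of these cell types in the member differences was not tested either.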

How the data were processed

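Total RNA of dissected, snap-frozen mucosa or tumour was extracted with TRIZOL and labelled as biotin cRNA (Ambion MessageAmp), per the labels' protocols. The deposited intensity values were bead signals as scanned, with no background subtraction or normalization found in them, and the deposited detection p-values, 1 for each signal, came from software not given in the sources used here. The deposited series matrix, also intensity, ranked probes exactly as the scanner signals did (column medians 67.8 to 88.3). Its scale and normalization are not stated, and it served only as an alternative.

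Of 25697 probes, 23978 named 1 gene in the platform annotation and 1719 none. A further 2 lines carried no probe identifier and were dropped. Arrays with under 20% of probes detected were left out and signals under 25 set to missing. Background was corrected with limma's normexp from detection p-values (offset 16), followed by log2 and quantile normalization. Probes naming 1 gene and detected on at least 2 of 14 arrays were kept (15495 probes, 11230 genes). The 7 group means were estimated by lmFit, then eBayes (7 residual degrees of freedom, no block). The 10 contrasts were tested two-sided with Benjamini-Hochberg adjustment over all probes, and called under 0.05. The comparison of both organs averages the colon and small intestinal contrasts, and the interaction is their difference. The fit was tested on simulated data. The number of arrays limits the precision.

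The members, the gene lists and the tests were chosen with earlier results of these data known. Named members were, per comparison, up to 6 called probes of largest rise and of largest fall, and in a direction with under 3 calls the 3 with the smallest p-values, given as not passed. The rule adds the 3 members each of highest and lowest mean and of widest and narrowest range, the 3 genes whose probes differ most, some fixed members and paralogs, up to 2 genes of each list by smallest p, and Myc, Fau and Rack1. An item of this rule is not reported here. Other called members are named since they complete a count. Where a gene has several probes, often only the probe picked by the rule is given, and its other probes can differ. The lists were translation factors with TOP mRNAs, ribosome biogenesis, mitochondrial ribosomal proteins, regulators, proliferation, ribosome components of other names, paralogs, and markers of smooth muscle, colonocytes, enterocytes, epithelium, endothelium, fibroblasts, red cells and T, B, plasma and myeloid cells. The probe of highest mean stood for a list gene.

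Alternatives were other scalings, background corrections, filters, blocks by title number or replicate number, the series matrix, all 16 arrays, and each array left out. Versions were R 4.3.3, limma 3.58.1, 1.17.8 of the data.table package, Python 3.11.15 and matplotlib 3.10.9. Sequences are from RefSeq on GRCm38.p6.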

Additional observations from a re-analysis of the deposited data

Results flagged for a closer look

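In 3 members every LIN28B/Apcmin colon array lay below both Apcmin colon arrays while both LIN28B/Apcmin small intestinal arrays lay above both Apcmin ones. Taken singly, 4 of 74 member probes were apart that way in the colon and 59 in the small intestine. Over all 15495 probes these counts were 2561 and 4091. How many of all probes held both was not counted, so the 3 have no share to stand against. For Rpl21 (probe ILMN_2688863) the difference was -0.55 in colon and 0.43 in small intestine, and their difference of -0.98 had an adjusted p of 0.195 in the limma interaction test. For Rpl3 the values were -0.13 and 0.28, with a difference of -0.41 (adjusted p = 0.385), and for Rps14 -0.27 and 0.22, with a difference of -0.49 (adjusted p = 0.299). None passed the interaction test.

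Member signal was also present on the 2 arrays left out of the comparisons. Of the 74 member probes, 26 were detected on replicate 4 of the LIN28B/Apcmin colon tumours and 15 on replicate 1 of the wt small intestine, against 67 to 73 on each readable array. No group held 4 or more readable arrays, so no array was tested as an outlier within its group.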

How the results depend on the processing

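Counts of called members are given in the order Apcmin against wt colon, LIN28B/Apcmin against wt colon, LIN28B against wt small intestine, LIN28B/Apcmin against wt small intestine, LIN28B/Apcmin against Apcmin small intestine, and LIN28B/Apcmin against Apcmin in both organs. As reported they were 1, 18, 1, 2, 1 and 3. They were 0, 4, 1, 1, 0 and 1 after median scaling, 0, 5, 1, 8, 2 and 3 on the series matrix, 6, 22, 2, 11, 7 and 6 with no background correction, 6, 22, 2, 13, 6 and 4 with a normexp offset of 50, 3, 16, 1, 5, 2 and 3 with no detection filter, 2, 18, 0, 6, 1 and 4 on probes detected on all readable arrays, 2, 15, 1, 2, 0 and 1 with 1 probe per gene, and 1, 16, 0, 2, 1 and 2 with subunit genes only. With signals under 25 kept they were 0, 15, 0, 0, 0 and 1, and with signals under 30 missing, chosen after seeing the data, 2, 18, 1, 3, 1 and 3. Title numbers 2135 and 1737 each fill a whole group of readable arrays, so a block by number cannot measure likeness between samples that share them. Taking title numbers as a random block (consensus correlation -0.05) the counts were 2, 19, 1, 4, 1 and 3. With arrays of 1 title number averaged they were 1, 2 (1 higher, 1 lower), 0, 0, 0 and 1 (lower), with 1 lower call each in LIN28B/Apcmin against Apcmin colon and in the interaction, where the other fits named here gave 0. Of 26 calls, 1 passed under that averaging, 6 after median scaling and 12 on the series matrix. With all 16 arrays and no signal missing every count was 0. Shares over all probes are not given for these alternatives or those below, so the counts do not show how members stood against all probes.

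Directions that turned were mostly those with all 16 arrays: the members' median became -0.50 in LIN28B/Apcmin against wt colon, -0.86 against Apcmin colon and -0.10 in both organs. In LIN28B/Apcmin against wt colon, Rpl13a became -0.22, Rpl24 -0.73, Rpl30 -0.51, Rpl35a -0.64, Rpl7l1 -1.46, Rps13 -0.76, Rps15 -0.65, Rps3 -0.77 and -0.40 (2 probes), Rps6 -0.65 and Rps9 -0.50, and in both organs Rpl7l1 -0.53. This alternative adds the 2 arrays with few detected probes. With signals under 25 kept, Rpl7l1 became -1.06 in LIN28B/Apcmin against wt colon and -0.31 in both organs. After median scaling the members' median in LIN28B/Apcmin against Apcmin colon became -0.13, and for other medians that kept their sign the cause of the shift was not tested.

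Leaving out each array in turn, the counts ranged from 0 to 3, 1 to 20, 0 to 1, 0 to 10, 0 to 7 and 0 to 10 in the order above, and were 0 in the other 4 comparisons. The members' medians ranged from 0.23 to 0.28, 0.34 to 0.40, 0.40 to 0.74, 0.48 to 0.74, 0.30 to 0.59 and 0.18 to 0.32. They ranged from 0.01 to 0.09 in LIN28B/Apcmin against Apcmin colon, 0.07 to 0.26 in Apcmin against wt small intestine, -0.05 (-0.0467, without LIN28B/Apcmin replicate 2) to 0.24 in LIN28B/Apcmin against LIN28B small intestine, and -0.50 to -0.20 in the interaction. Without the lone wt small intestinal array no comparison with that group could be made.

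With the replicate number as a block the counts were 6, 19, 4, 18, 10 and 11. Whether the numbers pair samples cannot be told. Correlations of deviations from the group means between same-numbered arrays ranged from -0.04 to 0.34. In groups of 2 arrays the deviations mirror each other, so the 30 correlations hold repeated values. The highest were 0.34 (LIN28B and Apcmin small intestine) and 0.28 (LIN28B and LIN28B/Apcmin small intestine).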
